A study of Mus musculus with 40 samples.

Results

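DNA methylation was read at the loci of the 6 genes that write and erase it in mouse B-lineage cells: Tet1, Tet2 and Tet3, and Dnmt1, Dnmt3a and Dnmt3b. The DNMT proteins place methyl groups on cytosine: Dnmt1 copies the pattern onto new strands after replication, and Dnmt3a and Dnmt3b methylate unmarked sites. The TET proteins oxidise 5-methylcytosine, a step towards its removal. Promoters of active genes with many CpGs are as a rule unmethylated, while gene bodies are as a rule methylated.

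The loci were taken as fixed windows of the mm9 genome: chr10:62255000-62375000 for Tet1, chr3:133110000-133220000 for Tet2, chr6:83300000-83420000 for Tet3, chr9:20700000-20775000 for Dnmt1, chr12:3795000-3925000 for Dnmt3a and chr2:153465000-153520000 for Dnmt3b. They held 553 of the 971845 tiles of 100 bp in the deposited table. The windows held 96 tiles for Tet1, 51 for Tet2, 114 for Tet3, 112 for Dnmt1, 127 for Dnmt3a and 53 for Dnmt3b. A value in at least 1 library was given for 477 of the 553. The windows are wider than the genes and can reach neighbouring genes. No mm9 annotation was used, so a tile is given by its position and not as exon, intron or promoter.

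The levels came from reduced representation bisulfite sequencing (RRBS), which reads CpG methylation in restriction fragments rich in CpG, in 24 libraries forming 8 groups of 3. Pro-B cells (early in B-cell development) and follicular B cells (mature and resting) were taken from C57/bl mice that were wild type (WT), knocked out for Tet2 (Tet2KO), knocked out for Tet3 (Tet3KO) or knocked out for both (DKO). Per the labels the knockouts were inducible and under the MB1 promoter, which is active in the B lineage from an early stage, so cells outside that lineage are not meant to carry the deletion. The mice were 6 to 8 weeks old; the 3 WT libraries of a stage came from mice of 6, 6 and 8 weeks, Tet2KO likewise, Tet3KO from mice of 7 weeks, and DKO from mice of 6, 7 and 7 weeks. All Tet2KO mice were female while the remaining groups held both sexes, so sex and genotype cannot be told apart in full. The labels do not name the mice. The 3 WT libraries of a stage differ in sex or age from each other, so they came from different mice. Each knockout group holds libraries that differ in sex or age and libraries that share both, which may come from the same mouse. The p-values therefore measure the spread between libraries, part of which may be technical. The stated cell types could not be checked against markers, since the table holds no expression.

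The depth behind a level is unknown, because the table gives fractions only. Pro-B Tet3KO library 8 had a value at 24600 tiles of the genome and at 18 of the 553 tiles of the windows. The other 23 libraries had values at 273728 to 631415 tiles, and at 165 to 379 of the 553. Follicular libraries had 231 to 349 of the 553. A tile was tested where each of the 8 groups had at least 2 libraries with a value there, which held for 117 of the 553 and for 200813 autosomal tiles in all. The 117 were 26 for Tet1, 11 for Tet2, 19 for Tet3, 21 for Dnmt1, 31 for Dnmt3a and 9 for Dnmt3b.

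Promoter sequence shows which starts of these genes have CCGG nearby, the site at which RRBS as commonly run cuts. Whether a start was read was not checked. RefSeq (GRCm38.p6) lists 10 starts for the 6 genes in the promoter table used here. The 250 bases before each start were searched for CG and for CCGG (a palindrome, so both strands are covered, and each CCGG holds 1 CG). CCGG was present in 8 of the 10 (80%), against 47.1% of 32851 promoters in the table. Of the 8, 2 are Dnmt3a stretches that overlap (chr12:3806730-3806979 and chr12:3806910-3807159, GRCm38.p6). The number of CG was 51 for Tet2, 17 for Tet3, 15 for Tet1, 21 for Dnmt3b, 38, 40 and 15 for the 3 Dnmt3a starts and 26, 7 and 2 for the 3 Dnmt1 starts, against a median of 6 over all promoters. The Tet2 promoter had more CG than 99.9% of promoters. The 5 stretches below contrast CpG-rich starts with a CpG-poor start of Dnmt1; capitals mark each CG, and the coordinates are GRCm38.p6 and were not converted to mm9, so no stretch is assigned to a tile.
Tet2 promoter (chr3:133544391-133544640, GRCm38.p6, minus strand): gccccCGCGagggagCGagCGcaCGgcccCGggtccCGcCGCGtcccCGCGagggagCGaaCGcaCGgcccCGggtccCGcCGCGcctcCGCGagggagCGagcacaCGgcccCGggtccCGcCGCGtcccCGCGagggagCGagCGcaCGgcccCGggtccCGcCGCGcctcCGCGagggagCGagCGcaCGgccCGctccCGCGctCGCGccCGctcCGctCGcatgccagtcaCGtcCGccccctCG
Tet3 promoter (chr6:83441679-83441928, GRCm38.p6, minus strand): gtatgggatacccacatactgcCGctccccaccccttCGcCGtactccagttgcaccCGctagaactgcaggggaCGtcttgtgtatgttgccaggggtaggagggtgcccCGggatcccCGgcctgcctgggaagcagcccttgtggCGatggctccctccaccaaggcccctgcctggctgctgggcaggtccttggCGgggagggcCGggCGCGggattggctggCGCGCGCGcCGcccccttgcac
Dnmt3b promoter (chr2:153649199-153649448, GRCm38.p6, plus strand): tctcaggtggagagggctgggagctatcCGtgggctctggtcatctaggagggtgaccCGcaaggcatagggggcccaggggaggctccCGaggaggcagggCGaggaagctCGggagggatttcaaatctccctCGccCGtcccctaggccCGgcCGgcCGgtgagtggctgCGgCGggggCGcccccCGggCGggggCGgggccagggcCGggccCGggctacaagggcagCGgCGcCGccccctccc
Dnmt1 promoter, CpG-rich start (chr9:20952624-20952873, GRCm38.p6, minus strand): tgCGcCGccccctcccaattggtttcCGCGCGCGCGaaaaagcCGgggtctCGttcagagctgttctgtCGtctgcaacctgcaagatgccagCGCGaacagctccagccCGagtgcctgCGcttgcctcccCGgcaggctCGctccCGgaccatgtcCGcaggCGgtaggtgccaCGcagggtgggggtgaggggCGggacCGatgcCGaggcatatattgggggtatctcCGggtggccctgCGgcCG
Dnmt1 promoter, CpG-poor start (chr9:20959889-20960138, GRCm38.p6, minus strand): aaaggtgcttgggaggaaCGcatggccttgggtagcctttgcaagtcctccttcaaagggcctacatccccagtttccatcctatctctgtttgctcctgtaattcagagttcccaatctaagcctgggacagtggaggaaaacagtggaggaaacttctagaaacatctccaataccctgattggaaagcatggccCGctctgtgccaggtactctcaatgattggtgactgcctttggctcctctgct
The CpG-poor Dnmt1 start has 2 CG and no CCGG in these 250 bases, while the CpG-rich Dnmt1 start has 4 CCGG, as does Tet2. The promoters of Tet3, Tet1 and Dnmt3b had 3, 1 and 6 CCGG.

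Each window held 1 or more dense runs of unmethylated tiles among methylated ones. Over the 189 tiles with a value in all 12 follicular libraries, 78 (41.3%) had a mean level under 20%, 15 (7.94%) lay from 20 to 80% and 96 (50.8%) were over 80%. Over all 324168 autosomal tiles with the same coverage these shares were 32.0%, 10.9% and 57.0%. The map of levels along the windows shows runs at or near 0 and isolated tiles near 100%, with WT and DKO follicular means on top of each other at most tiles.

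**Figure D1:**
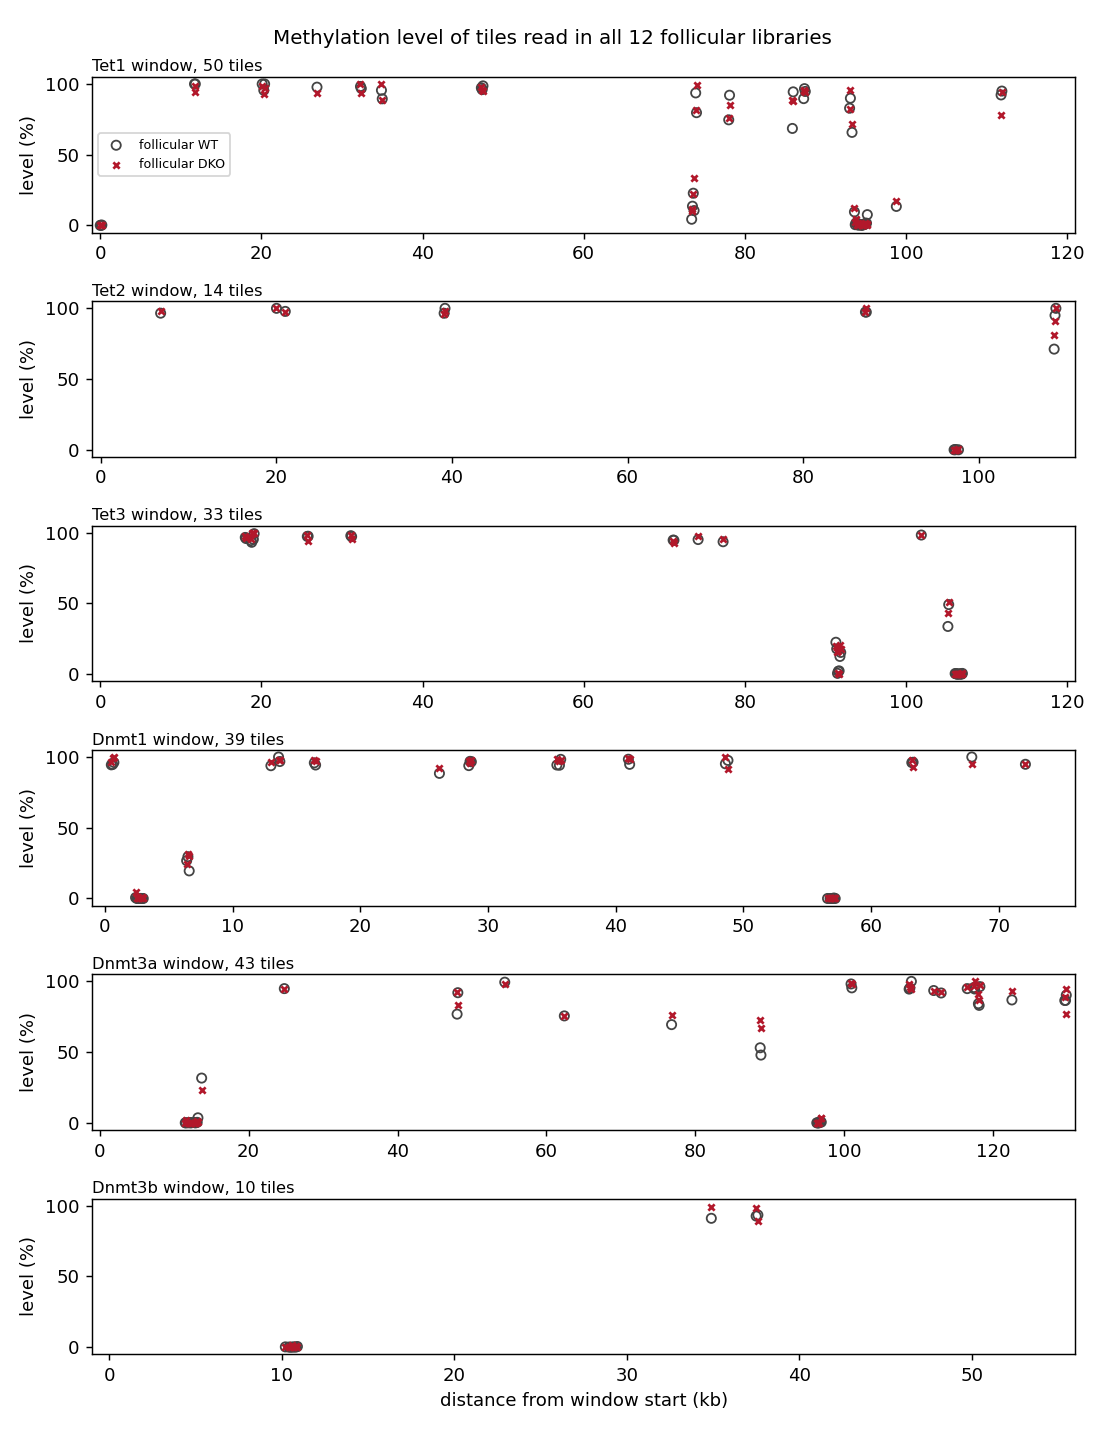
Methylation level (%) of the 189 tiles with a value in all 12 follicular libraries, against distance from the start of each window (kb). Circles are means of 3 follicular WT libraries and crosses means of 3 follicular DKO libraries; runs near 0 alternate with tiles near 100%, and the pairs coincide at most positions.

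Among the TET genes, the densest run of the Tet2 window lay at chr3:133207201-133208000 and had 5 tested tiles. Its mean level was 0.175% ± 0.227 (SD, n = 3) in follicular WT and 0.0898% ± 0.0665 (n = 3) in follicular DKO. In pro-B cells it was 0.148% ± 0.156 (n = 3) in WT and 0.76% ± 1.32 (n = 3) in DKO. No group mean of this run reached 1%. In the Tet3 window a run of 10 tiles at chr6:83406001-83407100 was likewise unmethylated, with group means from 0 to 0.188%. In the Tet1 window the densest run, 17 tiles at chr10:62348101-62350300, was mixed. Its tiles had means over the libraries from 0.0805% to 92%. The run averaged 7.81% ± 5.5 (n = 3) in pro-B WT and 10.8% ± 0.45 (n = 3) in follicular WT. Run means take the tested tiles with a value in each library, so libraries can be averaged over different tiles. Pro-B WT library 1 had no value at chr10:62348301-62348400, where follicular WT averaged 65.8%. How far missing tiles account for the gap between the stages was not tested.

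Among the DNMT genes, the Dnmt1 window held 2 unmethylated runs, of 7 tiles at chr9:20702401-20703100 and of 5 tiles at chr9:20756801-20757300. Group means were 0.0945 to 1.95% in the first and 0 to 0.168% in the second. The Dnmt3a window held 17 tiles at chr12:3806501-3808800, with group means of 1.55 to 4.5%, and 6 tiles at chr12:3891301-3892000, with group means of 0 to 1.5%. All 9 tested tiles of the Dnmt3b window formed a run at chr2:153475201-153476500. This Dnmt3b run averaged 0.264% ± 0.426 (n = 3) in pro-B WT and 2.24% ± 0.415 (n = 3) in follicular WT. Its last tile, described further on, went from 0% in the 2 pro-B WT libraries with a value to 14.1% in follicular WT. Over the 7 Dnmt3b tiles read in all libraries but pro-B Tet3KO library 8, follicular WT was the lower, at 0.134% ± 0.22 against 0.336% ± 0.551 in pro-B WT (n = 3 each), and the libraries overlapped.

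The Tet3 window held a stretch at which values were missing in knockout libraries, which bears on the genotype labels. A tile was called lost when it had a value in at least 5 of the 6 follicular libraries with intact Tet3 (WT and Tet2KO) and in none of the 6 follicular libraries labelled as lacking it (Tet3KO and DKO). In the Tet3 window 14 of 61 such tiles were lost, against 0.146% of tiles genome-wide (713 of 487422). The 14 lay together at chr6:83352501-83354700, a stretch of 2200 bp. Outside the stretch the longest run of lost tiles in the genome had 3 tiles. The other 5 windows had 0 lost tiles by this rule, of 20 to 68 in each.

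Where Tet3 was intact, the stretch was heavily methylated. The 14 tiles had means of 93.6 to 100% over the follicular libraries with a value. By library, follicular WT had values at 14, 14 and 13 of the 14 tiles, and follicular Tet2KO at 12, 13 and 14. Follicular Tet3KO libraries had values at 0, 0 and 0, and follicular DKO at 0, 0 and 0. The rule chose the tiles on these follicular values, so this is a description and carries no test. Pro-B libraries were not used by the rule: WT had values at 3, 9 and 9 of the 14 tiles and Tet2KO at 11, 14 and 5. Pro-B Tet3KO had values at 0, 0 and 1, and pro-B DKO at 0, 1 and 0. The groups with and without intact Tet3 therefore did not overlap in pro-B cells either.

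Depth differs between these libraries, and the rest of the window shows by how much. At the 46 tiles of the Tet3 window outside the stretch that met the same requirement, values were present in 98.2% of tile-by-library pairs in intact follicular libraries and in 92% in knockout follicular libraries. In pro-B cells the same shares were 68.5% and 56.2%. Inside the stretch they were 95.2% (80 of 84) against 0% (0 of 84) in follicular cells and 60.7% (51 of 84) against 2.38% (2 of 84) in pro-B cells. The 2 pro-B knockout values were 1 tile in Tet3KO library 9 (chr6:83352801-83352900) and 1 in DKO library 11 (chr6:83354601-83354700), both at 100%. Another tile inside the stretch, chr6:83354501-83354600, was not lost, because follicular DKO library 22 had a value of 100% there; pro-B DKO library 11 had 100% too. The nearest tiles outside the stretch that kept their values were 21200 bp before and 16300 bp after it, so its edges are known only to within those gaps. Pro-B Tet3KO library 8 had values at 3 of the 46 outside tiles, so its absence of values inside says little. A tile can lack a value because the DNA is missing or because too few reads fell there; which applies was not tested.

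The Tet2 window showed no such stretch. By the matching rule 0 of 23 tiles were lost, against 0.0589% of tiles genome-wide (275 of 466567), and 0 tiles were lost in each of the other 5 windows. The largest gap between intact and knockout follicular libraries was 2 libraries, at chr3:133196401-133196500 (2 against 0) and chr3:133207501-133207600 (5 against 3). The 23 tiles left a gap of 39.4 kb, from 47.2 to 86.6 kb into the window, in which no tile met the requirement. A missing stretch there, or between other tiles, was not detectable by this rule, so the table gives no check of the Tet2 genotype. At 3 tiles of the Tet2 window, chosen after their values were seen, pro-B WT library 2 stood apart. It was at 0% at chr3:133129901-133130000, 36.4% at chr3:133130001-133130100 and 12.5% at chr3:133131001-133131100, while every other library with a value there was at 85.5% or more.

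**Figure D2:**
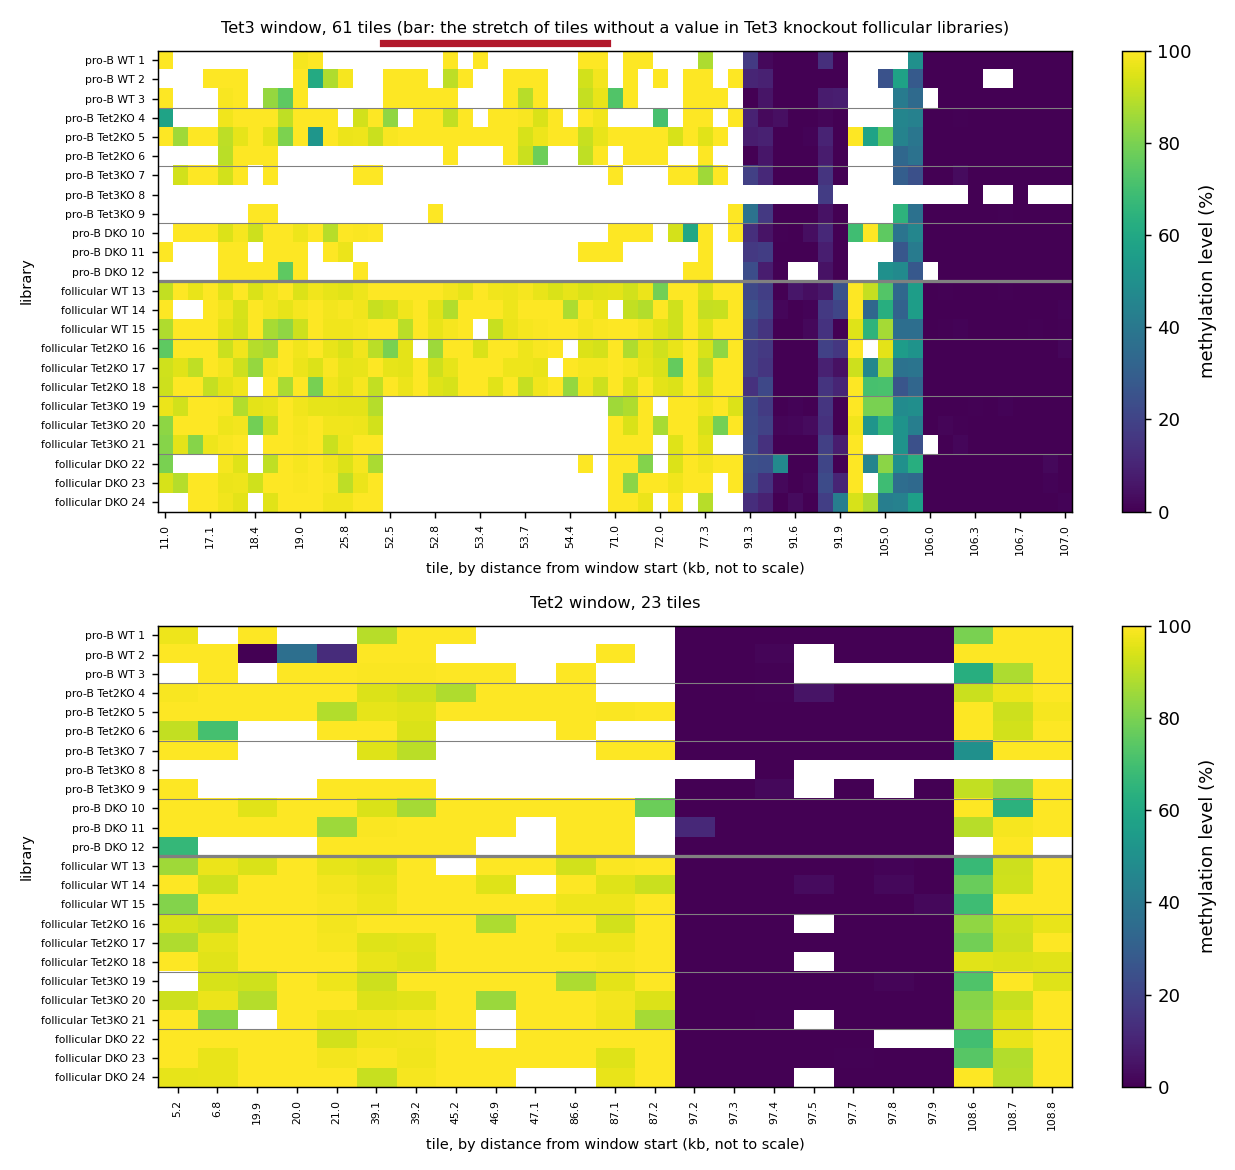
Methylation level (%) by library, top to bottom, and tile, left to right, for the 61 tiles of the Tet3 window and the 23 of the Tet2 window with a value in at least 5 of the 6 follicular libraries with that gene intact; white means no value. Under the bar, which spans the 14 lost tiles and the 1 that was not lost, the 12 Tet3KO and DKO libraries have 0 or 1 of the 14 lost tiles each, and no such block is seen in the Tet2 window.

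At the tiles that could be tested, no difference between genotypes was called. A tile was called at an adjusted p under 0.05 (limma's moderated test, two-sided, Benjamini-Hochberg over all 200813 tiles) and at least 20 percentage points between the 2 group means. Of the 117 tiles, 0 were called in each knockout comparison with WT. In follicular cells the share of all tiles called was 0.129% for DKO, 0.00299% for Tet2KO and 0.00996% for Tet3KO. In pro-B cells it was 0.231%, 0.0687% and 0.421%. At these shares fewer than 1 call among 117 tiles is what the background gives, so 0 is close to the background and is not a result about the loci. At an unadjusted p under 0.05 there were 8, 8 and 4 of the 117 in follicular DKO, Tet2KO and Tet3KO and 5, 4 and 7 in pro-B DKO, Tet2KO and Tet3KO. As shares these were 6.84%, 6.84% and 3.42% in follicular cells, against 5.82%, 2.87% and 3.96% of all tiles. In pro-B cells they were 4.27%, 3.42% and 5.98%, against 8.83%, 6.76% and 10.3% of all tiles.

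Between the stages, 0 of 117 tiles were called in WT (background 0.181%), 0 in Tet2KO (0.0563%) and 0 in DKO (0.168%), and 1 in Tet3KO (0.417%). At an unadjusted p under 0.05 there were 6, 10, 15 and 6 of 117 for WT, Tet2KO, DKO and Tet3KO, which is 5.13%, 8.55%, 12.8% and 5.13%. Over all tiles the shares were 8.5%, 5.96%, 9.76% and 11.9%. The test of whether a knockout difference itself differed between the stages called 0 of 117 for DKO (background 0.0289%), Tet2KO (0.0144%) and Tet3KO (0.0906%). Unadjusted p-values under 0.05 were found at 9, 4 and 4 of the tiles (7.69%, 3.42% and 3.42%), against 5.52%, 3.93% and 6.34% of all tiles. The median difference of the 117 tiles was 0 points in follicular DKO against WT, and 0.106 over all tiles. The levels of these sets are unlike. Of the 117, 75.2% had a mean level under 20% and 6.84% lay from 20 to 80%, against 55.5% and 11.6% of all tested tiles. At the 8 tiles from 20 to 80% the median was 6.27 points, with 7 of the 8 higher in DKO. Over all 23219 such tiles it was 4.24 points, and how many of them were higher was not counted. Follicular Tet3KO against WT gave 6.61 points with 7 of the 8 higher, and 3.4 points over all such tiles. Follicular Tet2KO against WT gave 1.51 points with 4 of the 8 higher, and 1.47 points over all such tiles. The 8 include 2 adjacent tiles of the Tet3 window and 3 of the Dnmt1 window. The differences between these medians were not tested.

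The 1 called tile lay in the Dnmt3a window, at chr12:3871801-3871900, 76.8 kb from its start. Its levels were 50% and 23.1% in the pro-B Tet3KO libraries with a value, and 82.2%, 71.2% and 90.5% in follicular Tet3KO. All follicular values were higher, and the difference was 44.8 points (SE 8.78, limma adjusted p = 0.0271, with 0.00207 to 0.399 over the alternatives tried). With pro-B Tet3KO library 9 left out, 1 pro-B library remained, and the difference was 31.3 points with an adjusted p of 0.142.

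The same Dnmt3a tile was also higher in follicular cells of WT. Its levels were 40%, 30.3% and 34.9% in pro-B WT and 66%, 72.9% and 69.4% in follicular WT. The groups did not overlap, and the difference was 34.4 points (SE 7.85), but the tile missed the threshold (limma adjusted p = 0.0931). In Tet2KO the means were 46.6% ± 13.2 (SD, n = 3) in pro-B and 75.4% ± 7.3 (n = 3) in follicular cells. In DKO the pro-B libraries were already at 68.2% and 76.8% and the follicular libraries at 73.8%, 67.6% and 86.7%. Against pro-B WT, pro-B DKO was 37.4 points higher (SE 8.78, limma adjusted p = 0.104), and the groups did not overlap. The difference between the DKO effects in the 2 stages was -30.8 points (SE 11.8, limma adjusted p = 0.832).

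Among the tested tiles of the Dnmt3b window the largest follicular DKO difference was at the edge of its unmethylated run, chr2:153476401-153476500. Its levels were 13.6%, 4.76% and 23.8% in follicular WT and 41.7% and 56.2% in the follicular DKO libraries with a value. The DKO values lay above the WT values, by 34.9 points (SE 9.28), and the tile was not called (limma adjusted p = 0.265). Follicular Tet2KO was at 31.2%, 50% and 25%, above every WT value, and Tet3KO at 47.1% and 21.9%. All pro-B libraries with a value were at 0 to 14.3%. Between the stages the DKO difference was 44.2 points (SE 9.28, limma adjusted p = 0.0722).

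Another Dnmt3a pair of tiles, chosen after its values were seen, lay at chr12:3883701-3883900. At the second tile follicular WT was at 43.5%, 46.5% and 53.6%, and follicular DKO at 80%, 57.1% and 64.7%. Tet2KO was at 53.6%, 51.6% and 46.9% and Tet3KO at 43.5%, 45.5% and 50%. The 3 DKO libraries were therefore above the other 9 follicular libraries. The first tile averaged 53.1% in follicular WT, 61.4% and 64.1% in the single knockouts of Tet2 and Tet3, and 72.6% in DKO. There the DKO libraries stood at 84%, 66.3% and 67.5%, above WT. Tet2KO reached 70.4% and Tet3KO 72.4%, so DKO overlapped both single knockouts. These tiles had too few pro-B values to be tested with the rest; asking for values in the compared groups only, DKO exceeded WT by 19.5 points (SE 10.9, limma adjusted p = 0.972) and 19.4 points (SE 13.8, limma adjusted p = 1).

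In the Tet3 window 2 adjacent tiles near its unmethylated run of 10 tiles had intermediate levels. At chr6:83405201-83405300 pro-B WT was at 57.4% and 41.5% and follicular WT at 33.3%, 31.6% and 36.2%. The follicular WT values were lower, by 15.8 points (the difference was -15.8, SE 10.8, limma adjusted p = 0.752). The adjacent tile, chr6:83405301-83405400, went the other way, from 37.6% ± 11.2 (n = 3) in pro-B WT to 49.2% ± 11.3 (n = 3) in follicular WT. Over the tiles of the pair with a value in each library, the means were 43.6% ± 6.01 and 41.4% ± 4.61 (n = 3 each). Pro-B WT library 1 had a value only at the adjacent tile, 50%, so the pro-B mean does not rest on both tiles in each library. At chr6:83391501-83391600, away from this pair, follicular DKO stood at 46.9%, 2.27% and 0% and every other group mean was under 2%. The DKO difference was 15.8 points (SE 7.67, limma adjusted p = 0.847), and without DKO library 22 it was 0.59 points.

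Among the 117 tested tiles, the largest differences in follicular DKO against WT and in WT between the stages were smaller in the Tet1, Tet2 and Dnmt1 windows. In the Tet1 window they were -6.26 points for follicular DKO against WT, at chr10:62350201-62350300 (limma adjusted p = 0.718), and -10.9 points for WT follicular against pro-B, at chr10:62328401-62328500 (limma adjusted p = 0.83). In the Tet2 window they were 10.1 points at chr3:133218601-133218700 and -9.76 points at chr3:133115201-133115300 (limma adjusted p = 1 and 0.841). In the Dnmt1 window they were 10.2 and 12.7 points, both at chr9:20706601-20706700 (limma adjusted p = 1 and 0.932). At this Dnmt1 tile pro-B Tet3KO libraries stood at 4.65% and 71.4%, a spread wider than any difference between groups. Among the tested tiles of the Dnmt3a window the follicular DKO difference was largest at chr12:3843001-3843100, 15.5 points (limma adjusted p = 1), from 72.6%, 84.6% and 73.3% in WT to 92.3%, 84.6% and 100% in DKO.

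**Figure D3:**
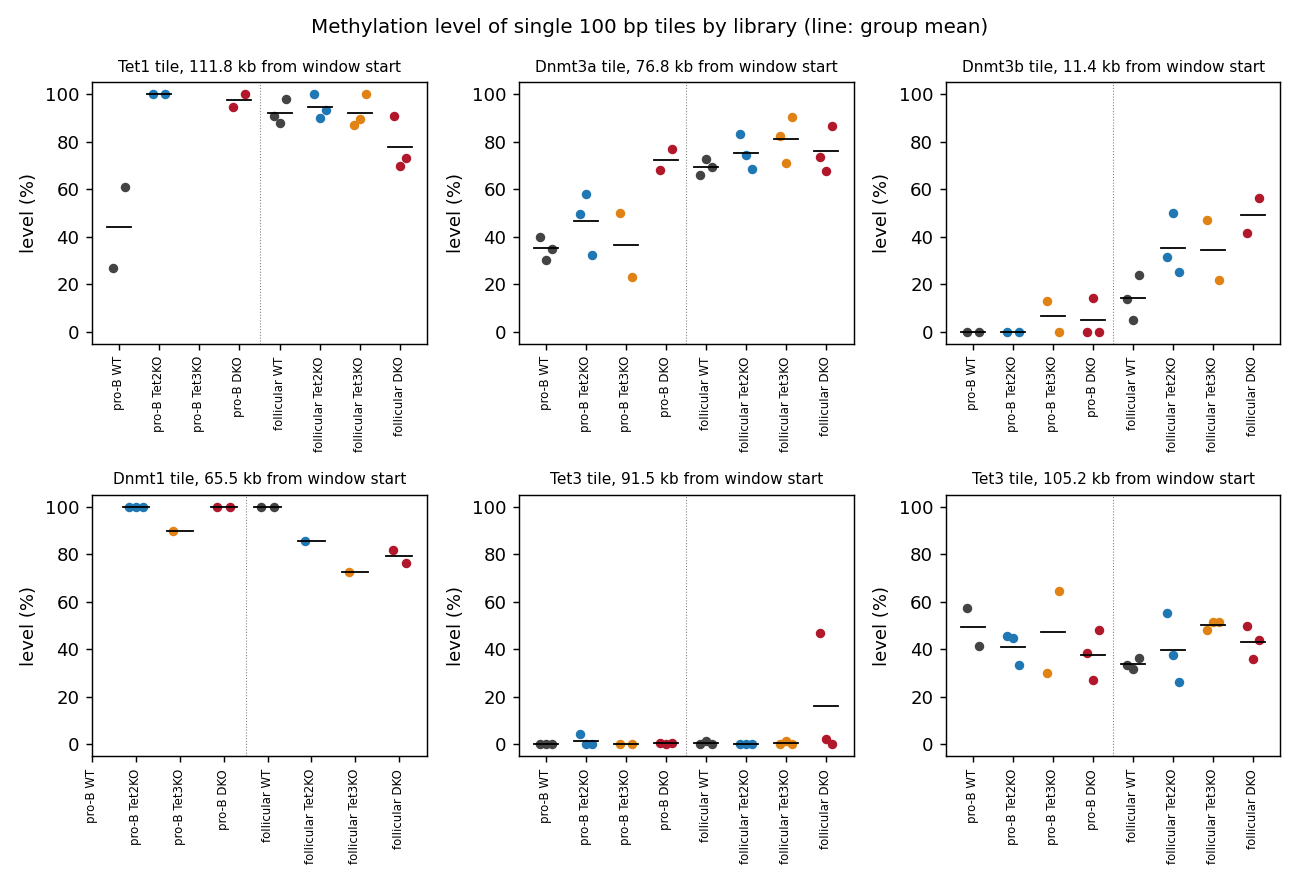
Methylation level (%) of 6 single tiles by library; colours are genotypes, the dotted line divides pro-B from follicular groups, and lines are group means of 1 to 3 libraries. The Dnmt3a tile stands at 35.1% in pro-B WT and 69.4% in follicular WT, the Dnmt3b tile at 14.1% in follicular WT and 49% in follicular DKO, and groups with no point had no value.

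More tiles of the windows could be tested by asking for 2 of 3 libraries in the compared groups only, a filter added after the data were seen. It called 1 of 274 tiles in follicular DKO (background 0.14%), 0 of 302 in follicular Tet2KO (0.00565%) and 0 of 280 in follicular Tet3KO (0.0153%). In pro-B cells it called 1 of 168 in DKO (0.443%), 1 of 193 in Tet2KO (0.224%) and 0 of 126 in Tet3KO (0.408%). Between the stages it called 1 of 197 in WT (0.374%), 0 of 259 in Tet2KO (0.125%), 1 of 132 in Tet3KO (0.472%) and 1 of 202 in DKO (0.211%). Each count is near its background.

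These calls came from 2 further tiles, named after their values were seen, and the Dnmt3a tile above. At the Tet1 tile chr10:62366801-62366900 pro-B WT was at 26.7% and 61.1%, pro-B Tet2KO at 100% and 100%, and pro-B DKO at 94.7% and 100%. Follicular WT was at 90.9%, 88% and 97.9%, and follicular DKO at 90.9%, 69.6% and 73.3%. In follicular cells the DKO mean, 77.9%, was thus below that of WT, 92.3%, while Tet2KO averaged 94.5% and Tet3KO 92.2%. Pro-B WT was thus the low group, by 53.5 points against DKO (SE 9.48, limma adjusted p = 0.0284), 56.1 against Tet2KO (SE 9.5, limma adjusted p = 0.0323) and 48.4 against follicular WT (SE 8.66, limma adjusted p = 0.0316). All 3 comparisons share its 2 values. At the Dnmt1 tile chr9:20765501-20765600 follicular WT was at 100% and 100% and follicular DKO at 81.8% and 76.5%, and the difference was -20.9 points (SE 2.22, limma adjusted p = 0.0367). Pro-B DKO was at 100% and 100%.

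Averages over a window lay within a few points of each other between the genotypes of a stage. Leaving out library 8 and taking the tiles read in the other 23, the Tet2 window (6 tiles) had group means of 47.5 to 48.7% and the Dnmt3a window (14 tiles) 35.6 to 39.6%. The Dnmt1 window (14 tiles) had 11.1 to 15%, the Tet1 window (21 tiles) 2.01 to 4.39% and the Dnmt3b window (7 tiles) 0.134 to 0.377%. The Tet3 window (13 tiles) had 4.67 to 11%. There follicular Tet3KO libraries (6.99 to 8.11%) and DKO libraries (8.32 to 13.9%) did not overlap, while each overlapped WT (6.83 to 10.9%). In follicular DKO against WT, libraries overlapped in all 6 windows. Over all 128596 autosomal tiles with the same coverage they did not overlap. There follicular DKO was at 29.2% ± 0.367 and follicular WT at 28.1% ± 0.127 (SD, n = 3 each). In pro-B DKO against WT they overlapped in 5 windows and not in that of Dnmt1, at 13.8% ± 1.18 and 11.5% ± 0.569 (SD, n = 3 each). Over all 128596 autosomal tiles with the same coverage they did not overlap either, at 28% ± 0.867 in pro-B DKO and 26.9% ± 0.333 in pro-B WT (n = 3 each), and over all 21 tested Dnmt1 tiles the libraries overlapped. A mean over a window is an average over few and unequal tiles and was given no test.

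The mean of the Tet3 window stood higher in follicular than in pro-B cells. Its 13 tiles averaged 4.79% ± 1.4 (SD, n = 3) in pro-B WT and 9.19% ± 2.11 (n = 3) in follicular WT, and the libraries did not overlap. They did not overlap in Tet2KO, 4.67% ± 0.578 against 7.83% ± 1.53 (n = 3 each), or in DKO, 5.82% ± 0.773 against 11% ± 2.78 (n = 3 each). In Tet3KO they overlapped, at 6.52% ± 1.3 (n = 2) and 7.66% ± 0.596 (n = 3). Over all 128596 autosomal tiles with the same coverage the means were 26.9% in pro-B WT and 28.1% in follicular WT. There the stages did not overlap in WT, Tet2KO or Tet3KO, and overlapped in DKO. In the Tet1 window they did not overlap in Tet2KO or Tet3KO either. Over the 3 Tet3 tiles with a value in all 24 libraries the WT stages overlapped, and over all 19 tested Tet3 tiles they did not. Within the Tet3 window the WT difference was seen at the 7 tiles at chr6:83391301-83392000, which averaged 3.53% ± 1 (n = 3) in pro-B WT and 10.4% ± 2.6 (n = 3) in follicular WT. At these 7 tiles the mean rose from 2.85% to 8.58% in Tet2KO and from 6.2% to 13.2% in DKO. In Tet3KO it did not rise, at 10.9% ± 5.96 in pro-B (library 8 included) and 8.74% ± 0.62 in follicular cells (n = 3 each). The tile chr6:83405301-83405400 was also higher in follicular WT, at 49.2% against 37.6% in pro-B WT. The run of 10 tiles was at 0% in pro-B WT and 0.167% ± 0.0751 (n = 3) in follicular WT.

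Over the tiles with values in all 12 follicular libraries the Dnmt3a window (43 tiles) was at 51.5% ± 0.23 (n = 3) in WT and 52.3% ± 0.292, 52.4% ± 0.738 and 53.1% ± 1.26 (n = 3 each) in Tet2KO, Tet3KO and DKO. Each knockout group lay above WT with no overlap, by 0.838, 0.935 and 1.63 points. The 3 comparisons share the WT libraries. Over all 324168 autosomal tiles with the same coverage, WT was at 59.7%, Tet2KO at 60.2%, Tet3KO at 60.7% and DKO at 61%. There too each knockout group lay above WT with no overlap, by 0.437, 0.913 and 1.25 points. In the Dnmt3b window (10 tiles) DKO, at 28.9%, lay above WT, at 27.8%, with no overlap, while the single knockouts overlapped WT. In the Tet1, Tet2, Tet3 and Dnmt1 windows each knockout group overlapped WT.

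**Figure D4:**
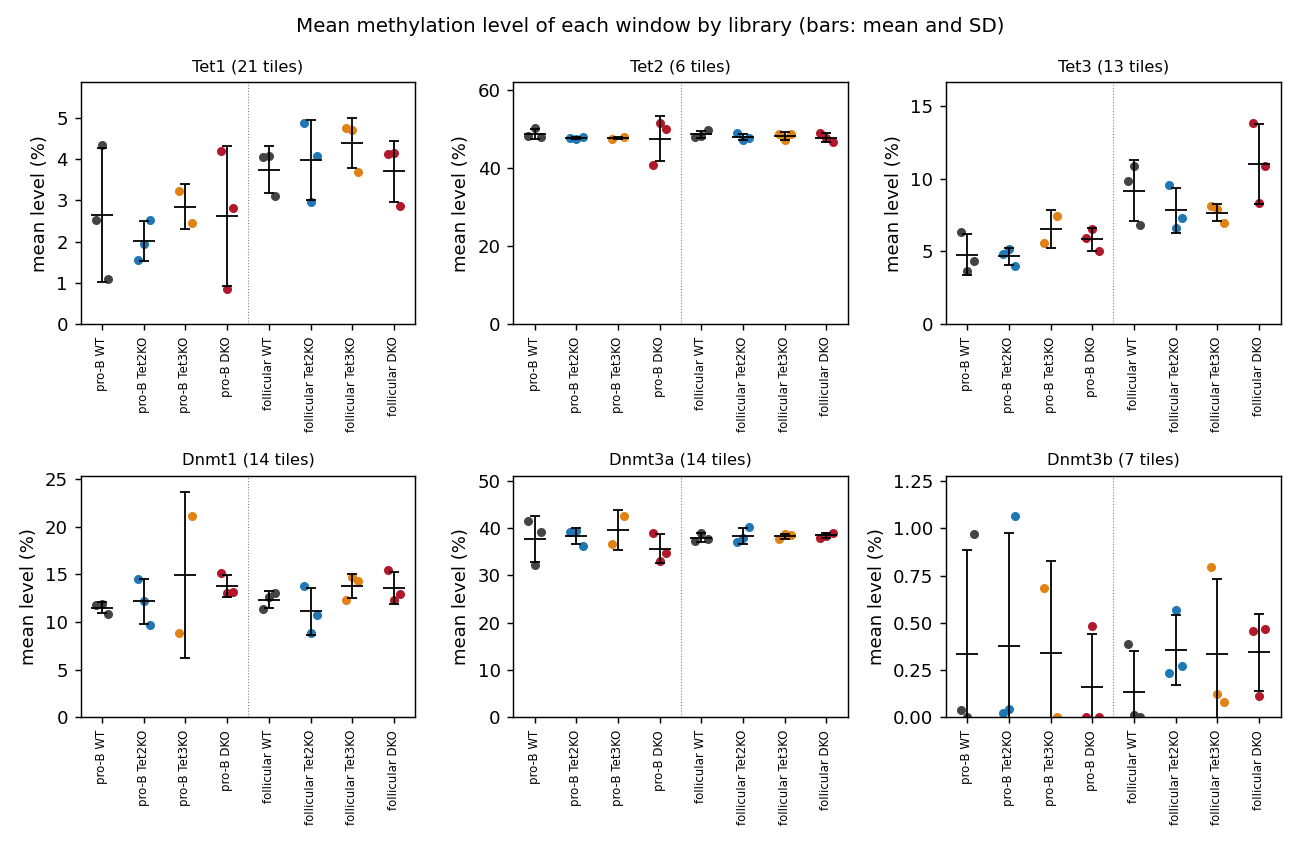
Mean methylation level (%) of each window by library for the tiles read in 23 libraries; points are libraries, coloured by genotype, and bars are the group mean and SD of 3 libraries (2 for pro-B Tet3KO). The Tet3 window stands at 4.79% in pro-B WT and 9.19% in follicular WT, while the Tet2 window stands at 48.7% and 48.6%.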

How the data were processed

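RRBS was measured in 24 libraries, 3 per stage and genotype; 16 RNA samples were not analysed here. The authors deposited a methylation fraction from 0 to 1 per 100 bp tile and library, with no coverage, per the file headers. Per the submitters' processing notes, Trim Galore and methylKit were used (no versions) with the builds mm9 and hg19; chromosome 1 tiles end at 197193600, so coordinates were read as mm9. The aligner, the conversion rate and any coverage minimum are not given in the sources used here. A tile without a value can have had no or too few reads.

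Fractions were multiplied by 100. Limma 3.58.1 (R 4.3.3) was fitted to autosomal tiles with a value in at least 2 of 3 libraries of each of 8 groups, all 24 libraries together, with a trended prior spread, and was tested on simulated data. Tiles called or of largest difference per window, the densest run per window (gaps up to 500 bp) and lost tiles were named. The members, windows and lists were chosen with earlier results of these data known. Promoters came from RefSeq (GRCm38.p6). Other genes of the pathway were not located in mm9 and not analysed here. Alternatives changed the scale, samples, covariates, centring, tile filter, size asked and unit of the test, and left out each library.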

Additional observations from a re-analysis of the deposited data

How the results depend on the processing

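The 14 lost tiles of the Tet3 window were 14 or 15 with any 1 follicular library left out, 10 when all 6 intact libraries had to have a value, 15 with 1 knockout library allowed, and 7 (45 genome-wide) when pro-B libraries were counted too (at least 10 of 12 intact and at most 1 knockout library), a rule that asks for more values. The Tet2 window had 0 under each of these. Taken in the order of their numbers, pro-B and follicular libraries agree in genotype, sex and age, so a pairing by mouse is possible. The labels do not say that such libraries came from 1 mouse, and the stage comparisons treated them as unpaired. Sex and age strata were fitted as a replicate block, which sets pro-B libraries beside follicular libraries of the same genotype, sex and age. The strata do not separate libraries of a group that share sex and age.

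The call at the Dnmt3a tile chr12:3871801-3871900 (44.8 points in Tet3KO between stages) was lost with only the compared groups fitted (44.8 points, limma adjusted p = 0.399), with the strata as a block (49.8 points, 0.0778), and without pro-B Tet3KO library 9 (31.3 points, 0.142), follicular Tet3KO library 19 (44.3 points, 0.0562) or 21 (40.2 points, 0.0816); the cause was not tested. The count in that comparison was then 0 with only the compared groups, 0 with the strata, 0 over tiles with a value in all 24 libraries (9 in the windows), 2 with no size asked, and 0 to 2 with a library left out.

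With no size asked, the counts became 1 in pro-B Tet2KO, 1 in pro-B Tet3KO, 1 in Tet2KO between stages and 1 in DKO between stages, where 0 had been called. With the strata as a block, 1 was called in pro-B Tet3KO. With tiles asked for the compared groups only, a filter added after the data were seen that tests more tiles, 1 was called in follicular DKO, 1 in pro-B DKO, 1 in pro-B Tet2KO, 1 in WT between stages and 1 in DKO between stages.

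With a library left out, the counts ranged over 0 to 1 in pro-B DKO (1 without pro-B WT library 2 or pro-B DKO library 11), 0 to 1 in pro-B Tet2KO and 0 to 1 in WT between stages (1 without pro-B WT library 2), 0 to 4 in pro-B Tet3KO (4 without Tet3KO library 7, 3 without library 9, 1 without WT library 2), 0 to 1 in DKO between stages, 0 to 1 for the difference of DKO effects and 0 to 2 for that of Tet3KO effects. Of 312 such counts, 298 kept the value reported or stayed within 1.5 times of it; of 133 counts under the other alternatives, 119 did.

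Signs turned at 3 differences that had not been called. At the Tet1 tile chr10:62350201-62350300 follicular DKO minus WT was 0.609 points with clusters of tiles as the unit. At the Dnmt1 tile chr9:20706601-20706700 it was -9.26 points with the strata as a block. At the Tet1 tile chr10:62328401-62328500 WT follicular minus pro-B ranged from -26.2 to 4.38 points with a library left out, the last without pro-B WT library 1.

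Window means depend on the tiles averaged. Over all tested tiles, follicular DKO minus WT was 2.95 points for Tet2, 1.72 for Dnmt3a and 2.09 for Dnmt3b, and WT follicular minus pro-B was -3.88 for Tet2, 2.25 for Dnmt1 and 1.97 for Dnmt3b. These means took each library over its tiles with a value, so the tiles averaged differ between libraries. Over tiles with all 24 libraries (1 to 3 tiles), WT follicular minus pro-B was 1.83 for Tet3 and -1.97 for Dnmt1, and follicular DKO minus WT was -0.200 for Dnmt3b. Over tiles with all 12 follicular libraries, follicular DKO minus WT was 0.549 for Tet2, 1.63 for Dnmt3a and 1.03 for Dnmt3b. Depth is unknown, so how many reads stand behind any level cannot be given, and only 117 of the 553 tiles had enough values to be tested.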
